A study of Hermetia illucens with 24 samples.

Results

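The genes described here had a higher level in black soldier fly larvae after 24 h on feed with aflatoxin B1 (AFB1), with little difference in group means at 6 h and 72 h and little drift in the control larvae. They were chosen by these measured levels, from the 15129 rows of the count table that carry an NCBI LOC identifier other than LOC119646963. Levels are log2(CPM + 1), where CPM is the count per 1000000 of the library's counts outside LOC119646963, the most abundant gene. A gene met the rule if its 3 control means lay within less than 1 of each other, if the AFB1 mean exceeded the control mean at 24 h by 1 or more, and if the means of both diets differed by less than 0.7 at 6 h and at 72 h. Of the rows, 383 met the rule, and the 150 with the largest 24 h difference are the subject.

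The study used whole larvae of *Hermetia illucens*, 5 days old at the start, on control or AFB1-spiked chicken feed, collected after 6, 24 or 72 h. Each of the 6 groups has 4 libraries here, while the protocol speaks of 5 replicates per treatment and time, and a library holds the total RNA of 2 larvae pooled. The sources used here do not give the strain, the toxin dose or whether pools came from separate containers, so the spread between libraries of a group may be partly technical. As these were bulk samples of whole larvae, a change in the number of cells of a type and a change in RNA per cell cannot be told apart.

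Aflatoxin B1 is made by *Aspergillus* moulds. In animals, cytochrome P450 enzymes turn it into an epoxide that binds DNA and protein, and conjugating enzymes and efflux pumps clear its products. Black soldier fly larvae are known to tolerate the toxin in feed. The deposited table and the RefSeq gene table used here give identifiers, gene class and gene order but no product names. No role is therefore stated for any LOC gene, and tissue markers could not be checked.

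Library totals ran from 6829395 to 27143922 counts, and the counts outside LOC119646963 from 1713199 in AFB1 24 h replicate 4 to 24362279 in AFB1 6 h replicate 1. LOC119646963 took between 7.12% and 81.1% of a library. Its share was 27.4%, 42.7%, 74.2% and 81.1% in the AFB1 24 h libraries, replicates 1 to 4. Outside that group it was highest in control 24 h replicate 4 (36.8%), AFB1 6 h replicate 3 (33.7%), AFB1 72 h replicate 1 (27.7%) and AFB1 6 h replicate 4 (23.9%). In the other 16 libraries it was at most 15.3%. Between pairs of control 72 h libraries, 11.6% (replicates 1 and 4), 19.7% (replicates 2 and 3) and 33.6% to 37.9% (the other pairs) of genes differed beyond counting error at an unadjusted p under 0.05, against 43.2% or more between any 2 libraries of another group.

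As a class, the 150 genes were 138 protein-coding genes, 11 long non-coding RNA (lncRNA) genes and 1 small nucleolar RNA (snoRNA) gene. Long non-coding RNAs are transcripts without a recognised coding sequence, and snoRNAs mostly guide chemical modification of ribosomal RNA. The lncRNA share was 7.33% of the 150, against 1.57% of the 10152 LOC genes with enough counts to be tested and 6.88% of all LOC rows. One member, LOC119649112, had too few counts to be tested. Mean levels over the 24 libraries ran from 0.749 to 2679 CPM with a median of 27.3 CPM, so both rare and abundant transcripts were included.

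The differences that chose the genes are given first as a description. The 24 h difference between group means ran from 1.45 to 4.00 on the log2(CPM + 1) scale, with a median of 1.81, while the median over the tested genes was -0.44. The last genes inside the limit of 150 were LOC119659898, LOC119652722 and LOC119661251, each at 1.45, and the first outside were LOC119647422 and LOC119649679 at 1.44 and LOC119654928 at 1.43. At 6 h the median difference was 0.34, and 128 of the 150 differences were above 0. At 72 h it was 0.23, with 117 above 0. All 3 medians use the same scale, and the tested genes had medians of -0.28 at 6 h and 0.07 at 72 h.

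Library by library, the 150 genes did not separate AFB1 24 h from every other group. Their median level was 5.21, 5.74, 6.67 and 6.36 in AFB1 24 h replicates 1 to 4, and 3.73, 3.57, 3.87 and 5.42 in control 24 h replicates 1 to 4. Control 24 h replicate 4 thus lay above AFB1 24 h replicate 1. The AFB1 6 h libraries had 4.34, 3.67, 5.42 and 4.55, where replicate 3 also exceeded AFB1 24 h replicate 1. The AFB1 72 h libraries had 4.87, 4.53, 4.12 and 3.90, the control 6 h libraries 4.23, 4.36, 4.17 and 4.21, and the control 72 h libraries 4.22, 4.28, 4.19 and 4.05. In the control groups of 6 and 72 h the medians stayed within a narrow band.

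**Figure D1:**
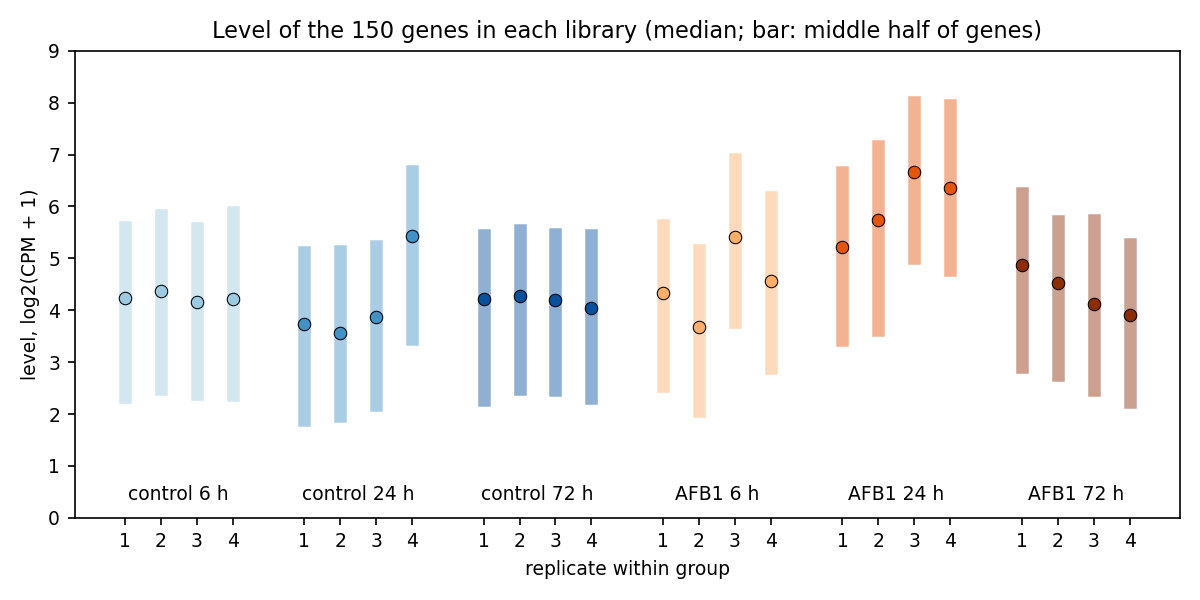
Median level of the 150 genes in each of the 24 libraries (point) and the span from the lower to the upper quartile of the genes (bar), on the log2(CPM + 1) scale, by group and replicate. AFB1 24 h libraries lie between 5.21 and 6.67, and control 24 h replicate 4 and AFB1 6 h replicate 3 both reach 5.42.

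Summed abundance was highest in the same library as the median in all 6 groups, while the order of the other libraries could differ. Together the 150 genes made up 2.35%, 3.34%, 7.48% and 6.56% of the counts outside LOC119646963 in AFB1 24 h replicates 1 to 4. In control 24 h libraries they made up 0.747%, 0.798%, 0.886% and 2.71%, in AFB1 6 h libraries 1.23%, 0.814%, 3.08% and 1.57%, and in AFB1 72 h libraries 1.84%, 1.24%, 1.10% and 1.02%. Control libraries of 6 h ranged from 1.03% to 1.25% and those of 72 h from 1.01% to 1.06%.

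Levels of the 150 genes followed the share of LOC119646963 within groups only in part, a relation the choice of genes did not use directly. In 4 of the 6 groups the library with the highest share had the highest median level, and in AFB1 24 h the 2 libraries of highest share had the 2 highest medians. Control 72 h was an exception, with shares that differed little (11.4% to 15.3%). In AFB1 24 h, replicate 4 had the highest share but a lower median than replicate 3 (6.36 against 6.67). In AFB1 72 h the order was reversed among replicates 2 to 4. Their shares were 8.94%, 9.94% and 12.9% and their medians 4.53, 4.12 and 3.90. AFB1 24 h is left out of the next comparison, as the rule chose genes high there. Among the other libraries, those of share 23.9% to 36.8% had median levels of 4.55 to 5.42. Those of at most 15.3% had 3.57 to 4.53. The part of LOC119646963 in the diet difference was not tested.

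**Figure D2:**
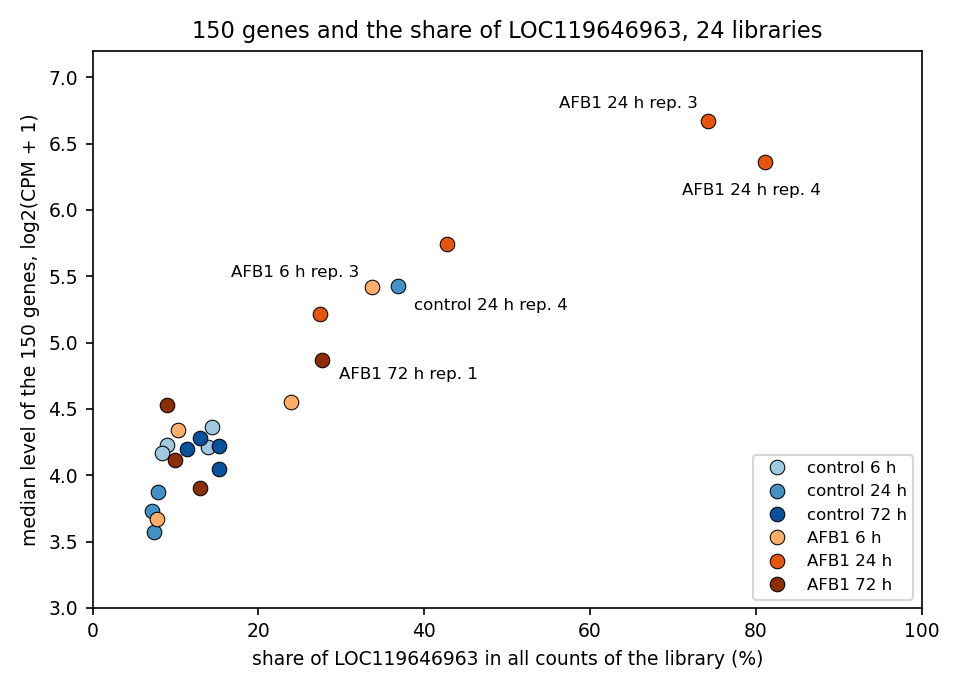
Median level of the 150 genes, log2(CPM + 1), against the percentage of a library's counts taken by LOC119646963, 1 point per library, coloured by group. AFB1 24 h replicates 3 and 4, at 74.2% and 81.1%, have the highest medians, and the labelled libraries of other groups lie between 27.7% and 36.8% with medians of 4.87 to 5.42.

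Within some groups most of the 150 genes had the same highest library. Control 24 h replicate 4 was the highest of its group for 143 of 150 genes (95.3%), while it was highest for 27.1% of the tested genes. AFB1 6 h replicate 3 was the highest of its group for 132 genes (88.0%, against 19.4% of tested genes). Both held for 131 genes, against 15.8% of tested genes. AFB1 72 h replicate 1 was highest for 97 genes (64.7%; 18.8% of tested genes). In AFB1 24 h, replicate 3 or 4 was highest for 148 genes, against 43.1% of tested genes. The rule chose genes high in AFB1 24 h, so this contrast is a description and no support. Replicate 3 was highest for 81 and replicate 4 for 67. In control 6 h and control 72 h the most frequent highest library, replicate 2 in both, led for only 64 and 56 genes (42.7% and 37.3%; 17.1% and 32.2% of tested genes). The exceptions in AFB1 24 h were LOC119650112, highest in replicate 1, and LOC119655911, highest in replicate 2. Of 826 other tested genes that exceeded controls by 1 or more at 24 h, 81.0% were highest in control 24 h replicate 4 and 71.8% in AFB1 6 h replicate 3. Among the AFB1 24 h libraries, 42.7% of these 826 genes were highest in replicate 3 and 44.4% in replicate 4.

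**Figure D3:**
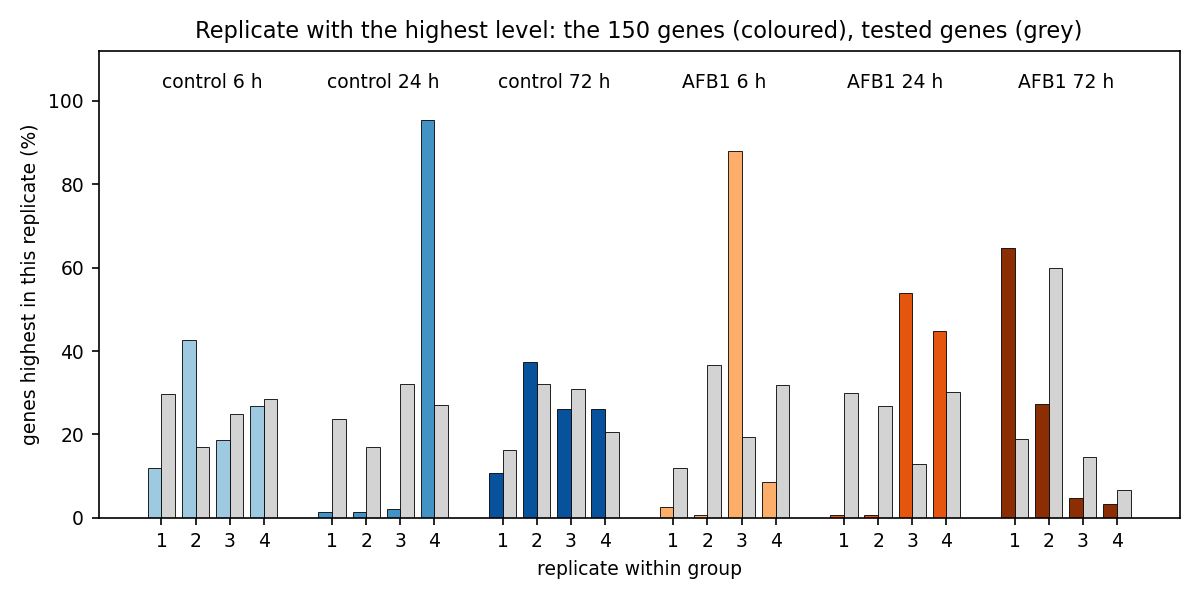
Percentage of genes whose highest level within a group was in a given replicate, for the 150 genes (coloured bars) and the 10152 tested LOC genes (grey bars). Among control 24 h libraries replicate 4 was highest for 95.3% of the 150 genes and 27.1% of tested genes, and among AFB1 6 h libraries replicate 3 for 88.0% and 19.4%.

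Set against the other 3 control libraries of 24 h, control 24 h replicate 4 was higher by 1 or more on the log2(CPM + 1) scale for 121 of the 150 genes, against 13.0% of tested genes. AFB1 6 h replicate 3 was higher by 1 or more than the mean of the 6 h controls for 108 genes, against 13.3% of tested genes. The numbers were 2, 1 and 8 genes for AFB1 6 h replicates 1, 2 and 4, or 1.33%, 0.667% and 5.33% against 8.57%, 5.95% and 7.44% of tested genes. For AFB1 72 h replicates 1 to 4 they were 34, 23, 5 and 3 genes, or 22.7%, 15.3%, 3.33% and 2.00% against 10.0%, 19.3%, 9.52% and 6.84% of tested genes. Among these 7 libraries the share of the 150 exceeded that of tested genes in AFB1 72 h replicate 1 and in no other. The rule bounded the mean differences at 6 h and 72 h for the 150 genes but not for tested genes. A lower share in these libraries is therefore no result about the genes. Without AFB1 6 h replicate 3, the median 6 h difference of the 150 genes was 0.01, with 82 above 0. Without AFB1 72 h replicate 1, the median 72 h difference was 0.09, with 90 above 0. The share of mitochondrial protein genes in the counts outside LOC119646963 was 6.42% in control 24 h replicate 4 (3.95% to 4.50% in the other 3), 7.36% in AFB1 6 h replicate 3 (4.68% to 8.99% in the other 3) and 6.74%, 9.94%, 15.6% and 14.7% in AFB1 24 h replicates 1 to 4. Its part in the result was not tested.

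The genes picked by the opposite rule, lower on AFB1 only at 24 h, gave the reverse order. The median level of the 150 with the largest fall was 3.40 in control 24 h replicate 4, against 5.02 to 5.37 in the other 3, and 2.66 in AFB1 6 h replicate 3, against 4.26 to 5.03. In AFB1 24 h replicates 1 to 4 it was 3.50, 3.31, 1.54 and 1.97.

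The scale of the measurement mattered. When LOC119646963 was counted in the library size, the median level of the 150 genes was 4.77, 4.96, 4.76 and 4.04 in AFB1 24 h replicates 1 to 4 and 3.63, 3.47, 3.76 and 4.78 in control 24 h replicates 1 to 4. On that scale replicates 3 and 4 no longer stood above replicates 1 and 2, and the highest control exceeded 3 of the 4 AFB1 libraries. The median 24 h difference fell to 0.69, that of the tested genes to -1.21, and 38 of the 150 genes still met the rule. Control 24 h replicate 4 was still highest in its group for 132 of the 150 genes and AFB1 6 h replicate 3 for 123.

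**Figure D4:**
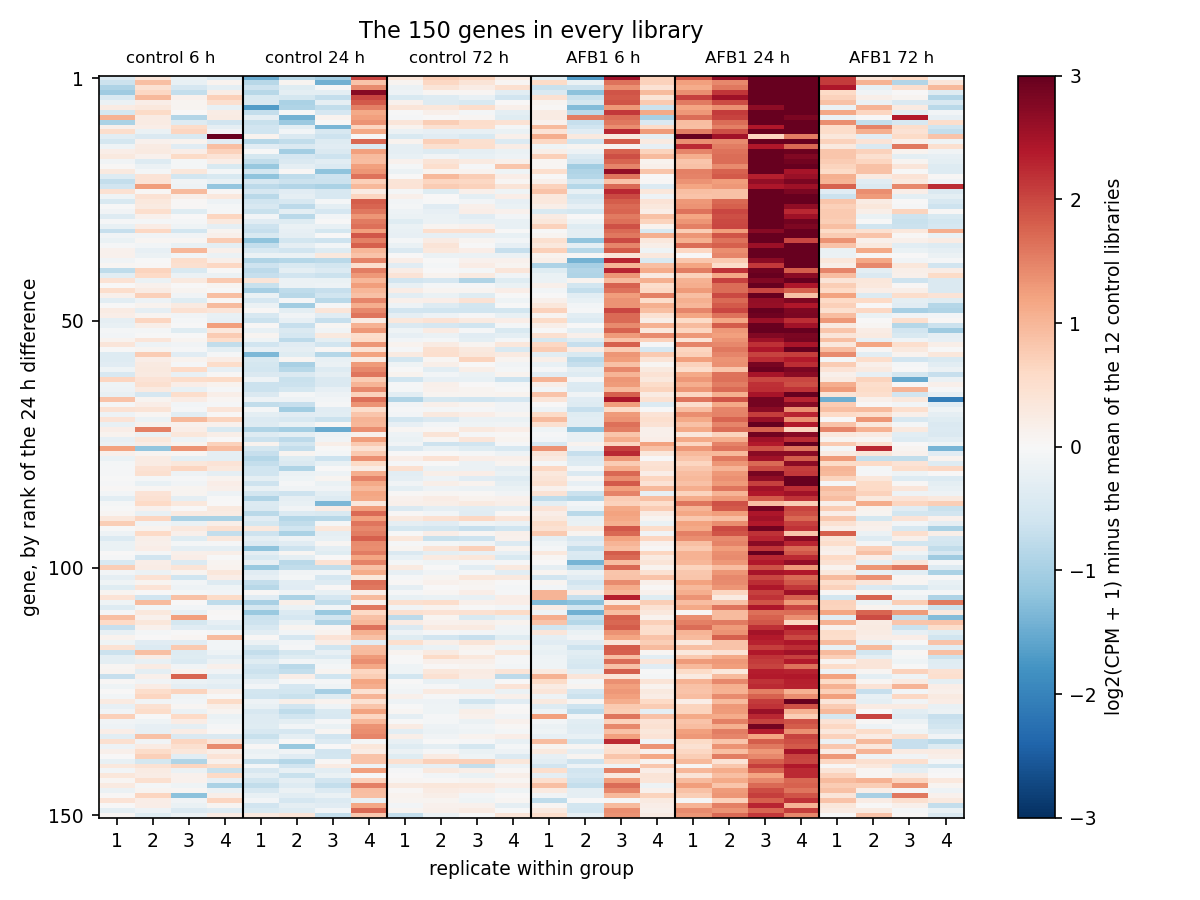
Level of each of the 150 genes (rows, by rank of the 24 h difference) in each library (columns), as log2(CPM + 1) minus the gene's mean over the 12 control libraries; colours saturate at 3 on either side. Columns for AFB1 24 h, control 24 h replicate 4 and AFB1 6 h replicate 3 are mostly red, the first strongest in replicates 3 and 4.

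Single genes showed the pattern in their library values. LOC119660566, a protein-coding gene, had the largest 24 h difference (4.00). It had 109, 196, 959 and 1080 CPM in AFB1 24 h replicates 1 to 4 and 9.84, 16.1, 14.0 and 124 CPM in control 24 h replicates 1 to 4. The diets overlapped at 24 h, since control replicate 4 exceeded AFB1 replicate 1. It had 22.6, 8.48, 175 and 48.6 CPM in AFB1 6 h libraries and 129, 39.7, 44.9 and 28.3 CPM in AFB1 72 h libraries. Control means were 26.7 ± 7.84 CPM at 6 h and 42.7 ± 7.40 CPM at 72 h (SD, n = 4). Its log2 fold change in edgeR was 4.02 (SE 1.09) at 24 h, 1.82 at 6 h and 0.50 at 72 h, and it was not among the genes whose effect was called different between times.

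LOC119651756 ranked second. Its AFB1 24 h values were 10.1, 11.7, 94.8 and 78.8 CPM and its control 24 h values 1.64, 4.02, 0.744 and 7.52 CPM, so the diets did not overlap at 24 h. AFB1 6 h replicate 3, at 13.5 CPM, and AFB1 72 h replicate 1, at 19.1 CPM, exceeded the lower AFB1 24 h libraries. LOC119660472, at rank 4, had 147, 250, 899 and 1392 CPM in AFB1 24 h libraries and 30.8, 44.9, 44.9 and 376 CPM in control ones. Its highest control exceeded both AFB1 24 h replicate 1 and replicate 2, and AFB1 6 h replicate 3 had 208 CPM.

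The remaining genes of the first 10 were LOC119651912 (2.72), LOC119650727 (2.67), LOC119647563 (2.64), LOC119649470 (2.57), LOC119661714 (2.56), LOC119652948 (2.51) and the lncRNA LOC119653210 (2.46), each with its 24 h difference on the log2(CPM + 1) scale. LOC119650727 had 114, 160, 222 and 282 CPM in AFB1 24 h libraries and 18.9, 18.1, 15.8 and 110 CPM in controls. All its AFB1 24 h libraries lay above all 20 other libraries, of which AFB1 6 h replicate 3 had 98.0 CPM. Only 3 of the 150 genes did so (0.443% of tested genes): LOC119650727, LOC119657716 and the lncRNA LOC119654732, the last with a mean of 2.01 CPM over all libraries.

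At 24 h, all AFB1 libraries lay above all control libraries for 53 of the 150 genes, against 5.19% of tested genes. Leaving out control 24 h replicate 4 raised this to 148 of the 150, against 13.8% of tested genes. The rule used this contrast, so neither count is support for it. Of the genes with the widest gap between diets at 24 h, LOC119657716 stood at 74.3, 78.7, 120 and 138 CPM on AFB1 and at 22.4, 21.5, 21.9 and 49.6 CPM on control feed. Its 6 h values on AFB1 were 41.3, 21.3, 68.0 and 37.2 CPM. LOC119657943 had 4.70, 5.20, 10.5 and 11.7 CPM against 0.787, 1.52, 1.08 and 1.92 CPM in controls, and AFB1 6 h replicate 3 reached 4.86 CPM. This gene overlaps another annotated gene, and the strand setting of its counting was not stated, so reads from both cannot be told apart. The other genes of widest gap were LOC119647425, LOC119649073, LOC119655702, LOC119651114, LOC119647839 and LOC119655103, with 24 h differences from 1.50 to 2.25.

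LOC119649761 had the widest gap and departed from the common order. It had 5.43, 2.92, 6.19 and 3.50 CPM in AFB1 24 h libraries, and 0.0656, 0, 0.0677 and 0 CPM in controls, where replicate 4 was at 0. AFB1 6 h libraries had 0.246, 0.443, 0.442 and 0.138 CPM and AFB1 72 h libraries 0.675, 0, 3.10 and 0.905 CPM. AFB1 72 h replicate 3 was thus within the range of the AFB1 24 h libraries. These levels rest on few reads, with 37, 18, 13 and 6 counts in the AFB1 24 h libraries and 2 counts over all 4 controls.

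LOC119650112 also departed from it, with 24.7, 7.80, 1.43 and 3.50 CPM in AFB1 24 h replicates 1 to 4. Its highest library was replicate 1, where LOC119646963 took the smallest share of that group. Controls of 24 h had 0.656, 0.139, 0 and 0.524 CPM, and control 6 h replicate 4, at 14.1 CPM, exceeded 3 of the AFB1 24 h libraries. The other 3 control 6 h libraries had at most 0.234 CPM. This gene also overlaps another annotated gene.

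In all, 6 of the 150 genes were highest neither in control 24 h replicate 4 nor in AFB1 6 h replicate 3, a group named after its values were seen: LOC119649761, LOC119650112, LOC119650297, LOC119655702, LOC119655946 and LOC119658025. LOC119658025 had 33.6, 55.9, 121 and 159 CPM in AFB1 24 h libraries against 32.6, 23.8, 25.9 and 29.2 CPM in controls. LOC119655946 had 11.9, 20.6, 51.0 and 64.8 CPM against 10.9, 7.27, 13.7 and 10.1 CPM. Both were near control levels in AFB1 24 h replicate 1 and high in replicates 3 and 4. LOC119655702 had 15.7, 15.3, 31.4 and 20.4 CPM against 3.48, 8.93, 4.26 and 8.56 CPM, and reached 24.8 CPM in AFB1 72 h replicate 4.

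**Figure D5:**
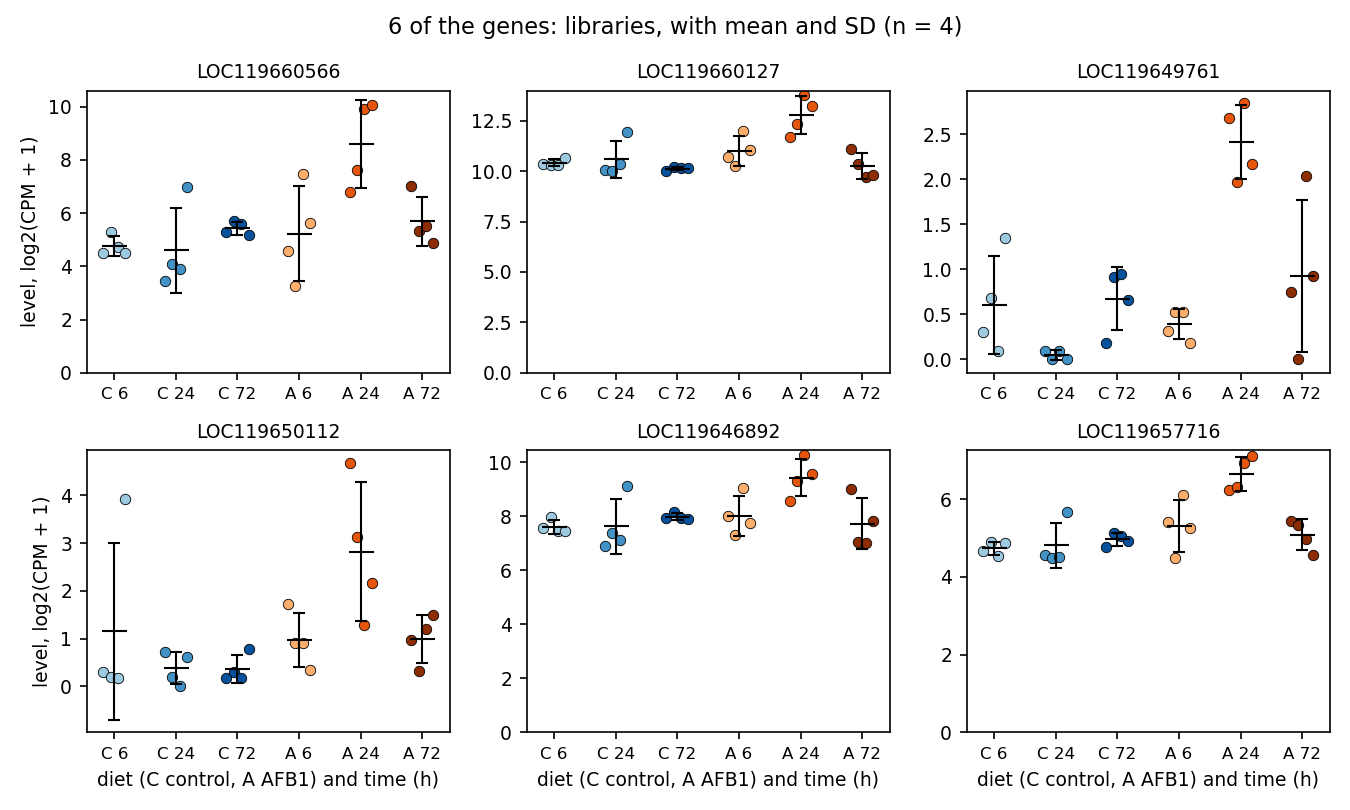
Level in every library, log2(CPM + 1), for 6 genes, with group mean and SD (n = 4); C is control and A is AFB1 feed, followed by the time in hours. LOC119660566, LOC119660127, LOC119646892 and LOC119657716 each have 1 raised control 24 h library (replicate 4), whereas LOC119649761 and LOC119650112 do not.

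The most abundant of the 150 were LOC119660127, LOC119660872, LOC119653780, LOC119651735 and LOC119647880, with mean levels over all libraries from 1046 to 2679 CPM. LOC119660127 had 3318, 5248, 14233 and 9820 CPM in AFB1 24 h libraries and 1050, 1024, 1313 and 3944 CPM in controls. Its control 6 h values were 1293, 1284, 1281 and 1627 CPM and its control 72 h values 1036, 1167, 1140 and 1134 CPM, a steady level in both groups. AFB1 6 h replicate 3 had 4151 CPM, above AFB1 24 h replicate 1. Read counts behind these values were 16823 or more in each 24 h AFB1 library, so counting error is small beside the spread between libraries. This gene overlaps another annotated gene too. LOC119653780 behaved alike, with 1506, 2269, 6003 and 4891 CPM against 494, 498, 463 and 1370 CPM, and 2742 CPM in AFB1 6 h replicate 3.

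The genes that varied most between the AFB1 24 h libraries were LOC119649112, LOC119651912 and LOC119650112. LOC119649112 had 0.147, 2.11, 10.0 and 25.1 CPM in AFB1 24 h replicates 1 to 4, from 1, 13, 21 and 43 counts. Its highest value elsewhere was 1.05 CPM, in control 24 h replicate 4.

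Among the non-coding members, the 11 lncRNA genes had 24 h differences from 1.54 to 2.46. All 11 were highest in control 24 h replicate 4 within its group, and 9 in AFB1 6 h replicate 3. LOC119646892, the most abundant of them, had 381, 632, 1223 and 749 CPM in AFB1 24 h libraries and 117, 164, 137 and 553 CPM in controls. AFB1 6 h replicate 3 had 526 CPM and AFB1 72 h replicate 1 had 513 CPM, both above AFB1 24 h replicate 1. LOC119652923, also a lncRNA, had a 24 h difference of 1.54. The snoRNA gene LOC119660630 had 4.11, 4.23, 8.57 and 11.7 CPM in AFB1 24 h libraries and 0.591, 0.762, 0.677 and 5.77 CPM in controls. It overlaps another annotated gene, so its reads may belong to that gene.

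In the gene order of the assembly GCF_905115235.1, 3 pairs of the 150 genes were direct neighbours, and none of the pairs overlapped. LOC119649470 and LOC119649472 formed the first pair. LOC119649470 had 47.7, 54.6, 135 and 200 CPM in AFB1 24 h libraries and 5.71, 10.4, 11.8 and 60.1 CPM in controls. LOC119649472 had 364, 274, 494 and 520 CPM and 91.1, 117, 93.2 and 435 CPM, with 493 CPM in AFB1 6 h replicate 3. Both overlapped between diets through control replicate 4. LOC119653217 and LOC119651264 formed another pair. They had 48.9, 89.5, 199 and 147 CPM and 101.3, 135, 398 and 385 CPM in AFB1 24 h libraries. Their controls had 25.2, 15.0, 25.9 and 51.7 CPM and 26.2, 28.8, 38.9 and 144 CPM. The lncRNA LOC119647865 and its neighbour LOC119648701 formed the last pair, with 13.1, 16.6, 36.7 and 43.2 CPM and 2.20, 2.11, 6.19 and 7.00 CPM on AFB1 at 24 h. Their controls had 4.99, 3.05, 8.59 and 18.9 CPM and 0.197, 0.693, 0.135 and 2.27 CPM. LOC119648701 overlaps another annotated gene. Spans of 30 of the 150 genes (20.0%) overlapped another annotated gene in that assembly, against 21.9% of tested genes.

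A model of all 24 libraries was fitted to all genes (edgeR's quasi-likelihood test, Benjamini-Hochberg adjustment over 10165 genes, a gene being called at an adjusted p under 0.05). The rule used the difference at each of the 3 times, so every count of members in this fit is a description of the genes chosen and no test of them. At 24 h, 139 of the 149 tested members were called higher on AFB1, and 12.2% of all genes were. Without control 24 h replicate 4 the calls were 150 members and 19.8% of all genes. They were 75, 80 and 69 members without control 24 h replicates 1, 2 and 3 (5.96%, 6.50% and 5.20% of all genes), and 62 without AFB1 24 h replicate 3 (5.14%). Without AFB1 24 h replicates 3 and 4, edgeR called no gene higher, member or not. In that fit the unadjusted p was under 0.05 for 53 members (35.6%), all higher on AFB1, and for 27.6% of all genes in either direction. AFB1 24 h replicate 1 exceeded the control mean by 1 or more for 87 members (58.0%; 6.72% of tested genes) and replicate 2 for 131 (87.3%; 9.17%). For the mean of both replicates the median difference was 1.22 on the log2(CPM + 1) scale, against -0.23 over tested genes. The rule used these levels, so these values are a description and no support for the effect.

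At 6 h, 1 member was called higher (6.52% of all genes), the lncRNA LOC119661328 with 110 counts in all. The unadjusted p at 6 h was under 0.05 for 27 members (18.1%), all higher on AFB1, and for 30.7% of all genes. At 72 h no member was called higher (3.35% of all genes) in edgeR, nor in DESeq2 or limma voom. The unadjusted p in edgeR was under 0.05 for 0 members and for 19.4% of all genes in either direction. No member was called lower in edgeR at 6 h (7.74% of all genes), 24 h (19.1%) or 72 h (5.92%). The rule kept differences of mean log2(CPM + 1) at 6 h and 72 h under 0.7 and did not bound the edgeR fold change. In edgeR the median log2 fold change of the members was 1.01 at 6 h, against -0.01 over all genes.

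The same fit gives the difference of effects between times, again on values the rule used. The median log2 fold change of the members was 1.01 at 6 h, 2.17 at 24 h and 0.29 at 72 h, against medians of -0.01, -0.16 and 0.06 over all genes. For 24 h minus 6 h, 2 members were called higher (0.698% of all genes), LOC119649761 with a difference of 7.50 (SE 1.52) and LOC119655946 with 2.41 (SE 0.59). For 24 h minus 72 h, 3 were called higher (0.895% of all genes), LOC119649761 with 6.14 (SE 1.45), LOC119661328 with 5.06 (SE 1.27) and LOC119650195 with 2.88 (SE 0.73). No member was called lower for 24 h minus 6 h (0.59% of all genes) or for 24 h minus 72 h (1.47%). The unadjusted p was under 0.05 for 29 members (19.5%) in the former and for 97 (65.1%) in the latter, all higher. Over all genes, in either direction, it was so for 24.4% and 25.4%.

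These counts moved with the tool and the libraries, and so did the share of all genes called. For 24 h minus 6 h, DESeq2 called 13 members (5.36% of all genes) and limma voom 0 (0.472%). For 24 h minus 72 h, DESeq2 called 32 (3.61%) and limma voom 3 (1.24%). Leaving out control 24 h replicate 4 and AFB1 6 h replicate 3, chosen after their values were seen, gave 144 members for 24 h minus 6 h (12.8% of all genes) and 140 for 24 h minus 72 h (13.4%). Without control 24 h replicate 4 alone they were 47 (4.63%) and 128 (9.47%). Without AFB1 6 h replicate 3 alone they were 19 (3.12%) and 14 (1.68%). Leaving out each library in turn gave 0 to 47 and 0 to 128 members. Both differences share the 24 h libraries.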

How the data were processed

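RNA of whole larvae was sequenced as read pairs of 150 bp, per the labels' protocols. The submitters' processing notes name STAR. The deposited table holds raw counts per gene for each library, with counting tool, genome build and strand setting not given in the sources used here. Per the series' design text, DESeq2 was the authors' test. Of 15197 lines, 1 was empty, and 9 rows naming no gene (0.0206% to 0.0431% of a library) were left out of the tests.

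CPM was computed outside LOC119646963, and the 150 genes were chosen by the rule above with a pseudocount of 1. The members and lists were chosen with earlier results of these data known. Counts were fitted with edgeR 4.0.16 in R 4.3.3 (filterByExpr, TMM, 1 coefficient per group, robust quasi-likelihood test, two-sided, 24 libraries). DESeq2 1.42.0 and limma 3.58.1 were alternatives. The procedure was tested on simulated data that did not model the wide range of LOC119646963 shares between libraries. That test therefore does not cover this feature of the data. The named genes are those of largest 24 h difference (10), those on either side of the limit (3 each), of widest gap between diets (10), of highest mean CPM (5), of widest range on AFB1 at 24 h (3), neighbours, and the most abundant non-coding ones; others were named after their values were seen. Lists by product name or by sequence were not formed. Whether the pools are separate cultures is not stated, so p-values measure the spread between these pools. The fit took the 4 control 72 h libraries, which differed least from each other, as separate pools, and its spread draws on them. Whether they are separate was not tested.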

Additional observations from a re-analysis of the deposited data

Results flagged for a closer look

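Some libraries lay far from the other 3 of their group. Control 24 h replicate 4 stood apart in the share of LOC119646963 (36.8%), in the median level of the 150 genes (5.42 on the log2(CPM + 1) scale) and in their summed share (2.71% of the counts outside LOC119646963). In the same library LOC119660566 (124 CPM), LOC119660472 (376 CPM), LOC119650727 (110 CPM), LOC119649470 (60.1 CPM), LOC119657716 (49.6 CPM), LOC119660127 (3944 CPM), LOC119653780 (1370 CPM), LOC119649472 (435 CPM), LOC119651264 (144 CPM), LOC119646892 (553 CPM) and LOC119660630 (5.77 CPM) stood apart as well, all on the high side. AFB1 72 h replicate 1 stood apart in its mitochondrial share (7.57%) and in LOC119660566 (129 CPM). Control 6 h replicate 4 was apart for LOC119650112 (14.1 CPM) and LOC119660127 (1627 CPM), control 6 h replicate 2 for LOC119646892 (252 CPM), and AFB1 72 h replicate 2 for LOC119648701 (2.37 CPM). Among the control 72 h libraries, LOC119650112 (0.719 CPM, replicate 4) and LOC119649112 (0.133 CPM, replicate 1) were apart on few reads. The former had 5 counts there, against 1, 3 and 2 in the other 3, and the latter was at 0 in the other 3. In the same group LOC119647865 (5.45 CPM, replicate 2, the low side) and LOC119646892 (285 CPM, replicate 2) were apart too. In all, 24 of 138 groups of 4 values were so marked, where chance marks about 1 in 20, and the values of 1 library are not independent of each other.

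In edgeR, 2 of the 150 genes were called for 24 h minus 6 h (0.698% of all genes were called higher) and 3 for 24 h minus 72 h (0.895%). The genes were chosen on these differences, and under the alternatives tried the counts ran from 0 to 144 and from 0 to 140. At the upper ends, 12.8% and 13.4% of all genes were called higher.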

How the results depend on the processing

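For the 24 h contrast, 1238 genes and 139 members were called higher in edgeR. These became 204 and 45 with only the 8 libraries of 24 h, 0 and 0 without AFB1 24 h replicates 3 and 4, and 2186 genes without control 24 h replicate 4 and AFB1 6 h replicate 3. Leaving out 1 library gave 528 to 2037 genes and 62 to 150 members. The members called were 75, 80 and 69 without control 24 h replicate 1, 2 or 3 (5.96%, 6.50% and 5.20% of all genes called higher). They were 62 without AFB1 24 h replicate 3 (5.14%). For 6 h, 1 member was called (6.52% of all genes called higher). It was 0 with limma voom (4.93%) and with the 8 libraries of 6 h (0.934%). Without the control 24 h replicate 4 and AFB1 6 h replicate 3 pair it was 0 too (2.73%). The range leaving out 1 library was 0 to 15, with 15 (10.5%) without AFB1 6 h replicate 2. For 72 h, 0 members were called (3.35% of all genes called higher; range 0 to 0), and 1, LOC119651125, with only the 8 libraries of 72 h (5.98%). For 24 h minus 6 h, 2 members were called (0.698% of all genes called higher). This became 1 with no filter on low counts (0.0962%), 13 with DESeq2 (5.36%) and 0 with limma voom (0.472%). Without AFB1 24 h replicates 3 and 4 it was 0 too (0.0287%). It was 144 without the control 24 h replicate 4 and AFB1 6 h replicate 3 pair (12.8%). The range leaving out 1 library was 0 to 47, with 47 (4.63%) without control 24 h replicate 4. For 24 h minus 72 h, 3 (0.895%) became 32 with DESeq2 (3.61%), 0 without AFB1 24 h replicates 3 and 4 (0.364%) and 140 without that pair (13.4%). The range leaving out 1 library was 0 to 128, with 128 (9.47%) without control 24 h replicate 4. With a replicate block, 134 members were called at 24 h (9.96% of all genes called higher), 0 for 24 h minus 6 h (0.0394%) and 1 for 24 h minus 72 h (0.492%). The correlation of deviations from the group means between libraries of equal replicate number ran from -0.26 to 0.22. Libraries of unequal number were not compared, so this does not settle whether the numbers pair the samples.

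Of the LOC rows, 383 met the rule. Of the 150 genes, 94 were again among the first 150 with TMM sizes, 38 (of 46 that met it, median difference 0.69) with LOC119646963 in the column sums, 99 (of 205) without AFB1 24 h replicates 3 and 4 and 97 (of 622) without control 24 h replicate 4 and AFB1 6 h replicate 3. Leaving out 1 library gave 280 to 511 genes, 89 to 147 members kept (89 without AFB1 6 h replicate 2) and medians of 1.55 to 2.14. The causes were not tested. The low depth outside LOC119646963 in AFB1 24 h replicates 3 and 4 limits genes of few counts.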
